A study of Mus musculus with 12 samples.

Results

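The genes described here make prostaglandins and leukotrienes, and were chosen by name. They are 9 of the 16234 genes in the count table: *Pla2g4a*, *Ptgs1*, *Ptgs2*, *Hpgds*, *Ptges*, *Alox5*, *Alox5ap*, *Ltc4s* and *Lta4h*. Mast cells release these lipids within minutes of antigen binding to surface IgE, beside the granule contents. Cytosolic phospholipase A2 first frees arachidonic acid from membranes. Cyclooxygenases then turn it into prostaglandin H2, from which a synthase makes prostaglandin D2, the main prostanoid of mast cells, while 5-lipoxygenase and its helper protein FLAP turn it into leukotriene A4, the source of leukotrienes C4 and B4.

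RNA of mouse bone marrow-derived mast cells (BMMCs) was sequenced in 12 libraries, which form 6 groups of 2. The labels give the *Elk4* genotype as WT, HZ (heterozygous) or KO, and the treatment as unstimulated or stimulated. The mice were littermates of a conventional *Elk4* knockout line on C57BL/6N, so every cell type of an HZ or KO mouse carried the altered gene, and all cultures were grown from marrow with IL-3 and SCF. Stimulated cells were loaded with anti-DNP IgE at 0.5 µg/ml overnight and given 100 ng/ml DNP-HSA, the antigen that crosslinks the IgE receptor FcεRI, for 1 h. Whether unstimulated cells had also been given IgE, and whether the 2 libraries of a group came from separate mice, is not stated, so p-values measure only the spread between these libraries.

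*Elk4* itself had 2426 and 2740 counts in unstimulated WT, 3238 and 2837 in unstimulated HZ, and 2613 and 2253 in unstimulated KO, and 1867 to 2322 counts in the 6 stimulated libraries. These raw counts were not scaled to their libraries, so overlaps between them do not settle whether the genotypes differ. As raw counts, unstimulated WT and KO overlapped and HZ lay above both, and stimulated HZ overlapped with WT and KO. The unstimulated KO library with 2613 counts had a total of 33994669, against 29697958 for the WT library with 2426. The stimulated HZ library with 2139 counts had the largest total, 35531667. These overlaps therefore need not hold after scaling. KO thus kept *Elk4* counts, and a count over the whole gene cannot show a deletion inside it. The paper reports western blotting of WT, HZ and KO BMMCs as evidence of the deletion. WT, HZ and KO below mean the libraries so labelled. Counts on genes totalled 29697958 to 35531667 per library. The 13 measured of 15 listed mast cell markers summed to between 48450 and 59650 normalised counts (CPM, defined below) in every library. Neutrophil markers summed to at most 1.35 CPM, lymphocyte markers to at most 0.705 and eosinophil markers to at most 4.97, while 5 basophil markers summed to between 531 and 788.8 CPM. The 12 macrophage and monocyte markers summed to between 43.5 and 58.7 CPM (WT), 83.3 and 90.3 (HZ) and 105 and 126 (KO). Most of that difference was *F13a1*, at no more than 1.66 CPM in WT and at 23.0 to 56.7 CPM in HZ and 56.1 to 59.8 CPM in KO. Without *F13a1* the sum in unstimulated cells was 41.8 to 45.5 CPM (WT), 26.6 to 27.2 (HZ) and 46.2 to 48.2 (KO), and in stimulated cells 56.8 to 58.1 (WT), 64.0 to 65.9 (HZ) and 59.3 to 66.5 (KO). Most of the remainder was *Cd68*, at 20.3 to 56.6 CPM. *Csf1r*, the receptor for a macrophage growth factor, had at most 23 counts, in stimulated WT, and the macrophage genes *Mrc1* and *Marco* had at most 1. The part of these markers in the results below was not tested.

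*Alox5* and *Alox5ap*, of the leukotriene branch, were the most abundant of the 9 genes in every library. Levels are compared between genes in FPKM, which divides the count by gene length and by library total. *Alox5* lay between 1079 and 1279 FPKM in all libraries, rank 26 of the table by its mean, and *Alox5ap* between 333.7 and 631.4 FPKM. *Lta4h* lay at 64.6 to 85.3 FPKM. The ranges of *Hpgds* (35.6 to 48.5 FPKM), *Ltc4s* (26.1 to 63.9 FPKM) and *Ptgs1* (6.42 to 45.1 FPKM) overlapped, and *Pla2g4a* lay at 18.2 to 28.0 FPKM. *Ptgs2* ranged from 0.147 FPKM in an unstimulated HZ library to 212.6 FPKM in a stimulated one. *Ptges* was at or near 0 throughout. In the following, CPM are normalised read counts, which relate a count to the total of its library after scaling by TMM, a factor per library that centres the bulk of genes.

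**Figure D1:**
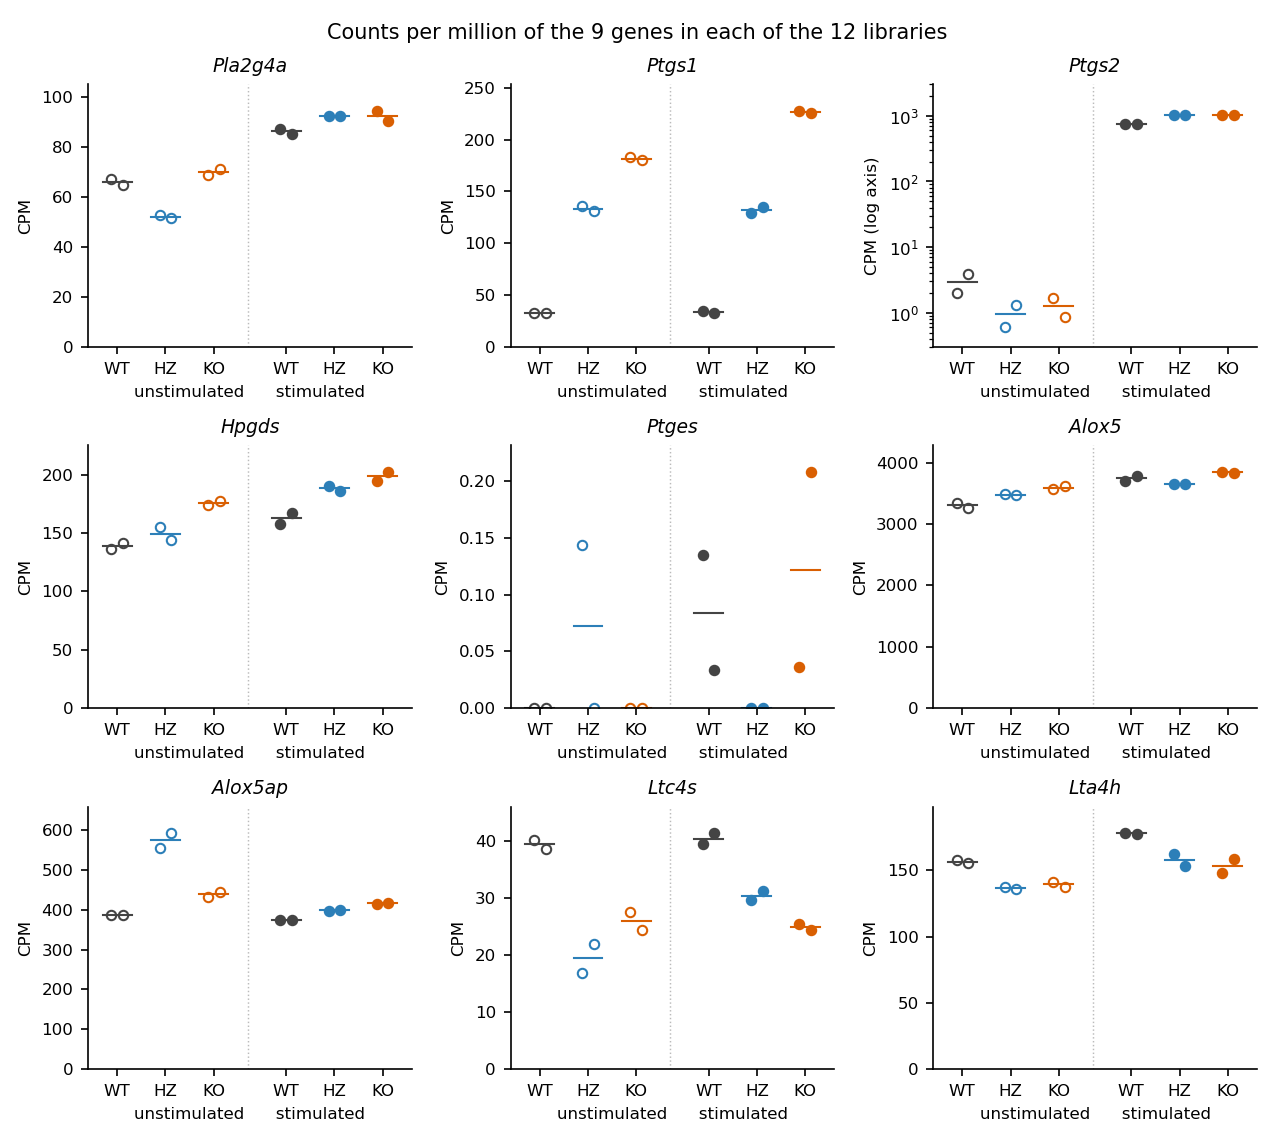
Normalised counts (CPM, TMM-scaled) of the 9 genes, with 1 point per library, a bar at the mean of each group of 2, open points for unstimulated and filled points for stimulated cells, and a log axis for Ptgs2 only. Ptgs1 is at 32.4 to 35.1 CPM in all WT libraries and at 129.3 CPM or more in every HZ and KO library, and Ptgs2 is at most 3.95 CPM before and at 739.8 CPM or more after stimulation.

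Differences were tested with edgeR's quasi-likelihood method, and p-values were adjusted (Benjamini-Hochberg) over the 12208 genes that passed a filter on low counts. *Ptges* failed this filter, so 8 of the 9 genes were tested. "Called" below means an adjusted p below 0.05, and "past the threshold" adds a size of at least 2-fold, or 1.5-fold between genotypes after stimulation. On stimulation, *Ptgs2* was the only gene of the 8 past the threshold in WT, HZ and KO alike, where 6.77%, 14.3% and 6.61% of all genes tested passed. Among unstimulated cells, 2 of the 8 passed between KO and WT, against 7.51% of all genes, 3 between HZ and WT (9.15%) and 0 between KO and HZ (3.36%). Among stimulated cells, 2 passed between KO and WT (12.7%), 1 between HZ and WT (7.89%) and 1 between KO and HZ (5.32%). KO and HZ were compared with the same WT libraries.

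Smaller differences were frequent among the 8 genes, as among all genes. With no fold threshold, unstimulated KO and WT differed in 7 of the 8 genes (44.6% of all genes), HZ and WT in 8 (51.4%), and KO and HZ in 6 (45.2%). After stimulation the counts were 6 for KO against WT (40.4%), 6 for HZ against WT (34.9%) and 3 for KO against HZ (24.9%). The median log2 fold change of the 8 genes was 0.10 for unstimulated KO against WT, where that of all genes was 0.02, and 0.13 for stimulated KO against WT, where that of all genes was also 0.02.

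**Figure D2:**
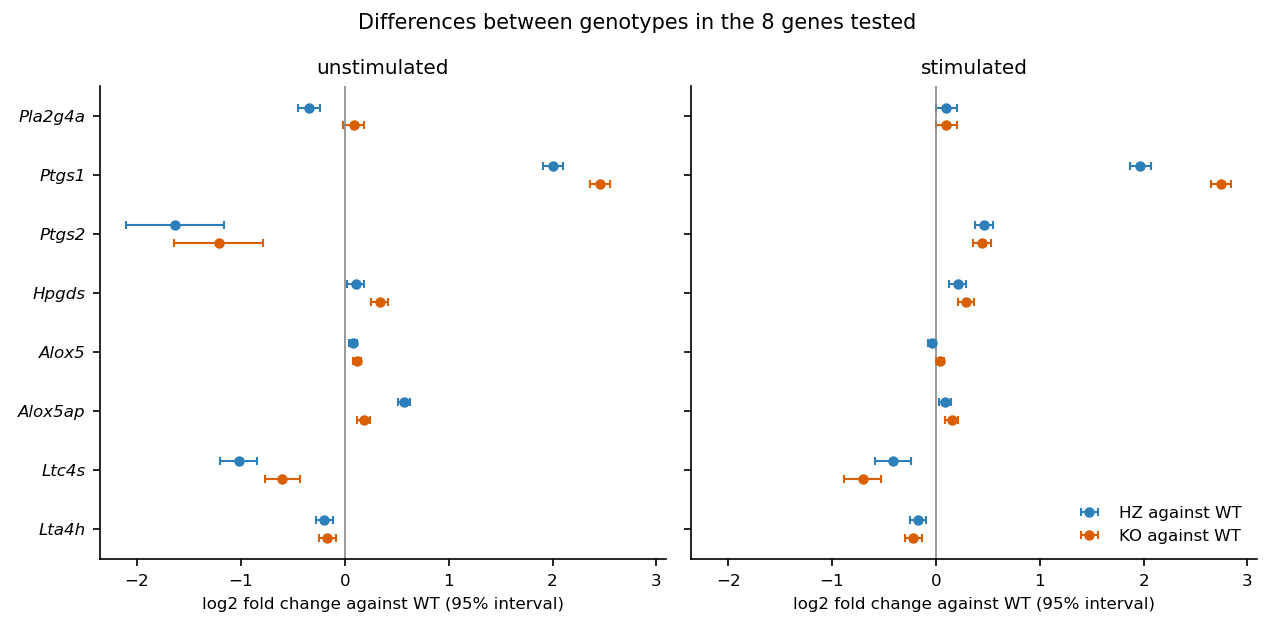
Log2 fold changes of HZ and of KO against WT with 95% intervals, from edgeR's model, in unstimulated (left) and stimulated cells (right) for the 8 genes tested. Ptgs1 stands at 2.01 and 2.45 in unstimulated and 1.97 and 2.75 in stimulated cells, Ltc4s is below 0 in all 4 comparisons, and Ptgs2 is below 0 before and above 0 after stimulation.

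The scaling mattered for small changes on stimulation. The TMM factors lay between 1.08 and 1.12 before stimulation and between 0.902 and 0.924 after it. Scaled by library totals in place of TMM, the median log2 change of all genes on stimulation was -0.32 in WT, -0.24 in HZ and -0.30 in KO, against -0.01 or closer to 0 with TMM. Of the 8 genes, 5 were called higher and 0 lower in stimulated WT with TMM (45.3% of all genes were called), and 1 higher and 5 lower with library totals. In HZ the split was 6 higher and 1 lower with TMM (64.4% of all genes called), and 4 and 3 with library totals. In KO it was 6 higher and 1 lower (40.8%), and 1 and 5. Only for *Ptgs2* and *Alox5ap* in all 3 genotypes, *Pla2g4a* in all 3, *Ptgs1* in HZ and KO, *Hpgds* in HZ and *Ltc4s* in HZ and KO did the direction hold under both scalings.

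**Figure D3:**
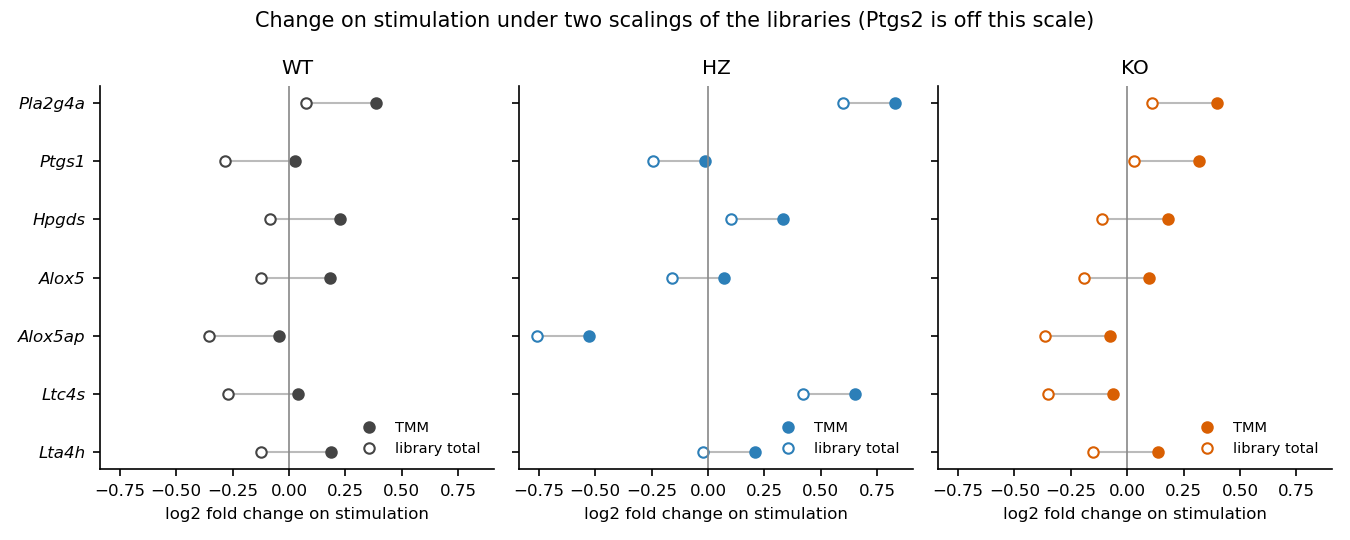
Log2 fold change of stimulated against unstimulated cells in WT, HZ and KO for 7 genes, scaled by TMM (filled) or by library total (open). Every open point lies to the left of its filled point, and those of Alox5 and Lta4h lie on the other side of 0 in all 3 genotypes.

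*Pla2g4a* (NCBI Gene 18783) encodes cytosolic phospholipase A2 alpha, which supplies the arachidonic acid for both branches. It rose on stimulation in every genotype, and most in HZ, where its unstimulated level was lowest. The unstimulated libraries held 67.4 and 64.7 CPM (WT), 52.6 and 51.4 (HZ) and 68.9 and 71.3 (KO). The stimulated libraries held 87.2 and 85.3 CPM (WT), 92.6 and 92.2 (HZ) and 94.5 and 90.3 (KO). Every stimulated library was above every unstimulated one, and the unstimulated HZ pair lay below the rest. The rise was 1.31-fold in WT (log2 fold change 0.38 ± 0.051 SE, adjusted p = 1.63e-08), 1.78-fold in HZ (0.83 ± 0.052, adjusted p = 5.51e-19) and 1.32-fold in KO (0.40 ± 0.051, adjusted p = 5.92e-09). With library totals the rise was not called in WT (0.08, adjusted p = 0.186) or KO (0.11, adjusted p = 0.0531). The response in HZ exceeded that in WT by 0.44 ± 0.073 on the log2 scale (adjusted p = 1.9e-06), and 38.5% of all genes tested differed in this comparison. In unstimulated HZ it was 1.27-fold below WT (adjusted p = 2.89e-07), and after stimulation neither HZ nor KO differed from WT at an adjusted p below 0.05 (0.119 and 0.114), though HZ did with library totals (0.13, adjusted p = 0.0439).

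*Ptgs1* (NCBI Gene 19224) encodes COX-1, the cyclooxygenase usually present at a steady level. It was several times higher in HZ and KO than in WT, both before and after stimulation. In unstimulated cells the libraries held 33.1 and 33.2 CPM (WT), 135.8 and 130.9 (HZ) and 183.1 and 180.3 (KO). In stimulated cells they held 35.1 and 32.4 CPM (WT), 129.3 and 135.0 (HZ) and 227.8 and 225.3 (KO). The 3 genotypes did not overlap in either state, with HZ between WT and KO. Unstimulated KO exceeded WT 5.48-fold (log2 fold change 2.45 ± 0.047 SE, adjusted p = 1.64e-38) and HZ exceeded WT 4.02-fold (2.01 ± 0.048, adjusted p = 6.73e-35). After stimulation KO exceeded WT 6.71-fold (2.75 ± 0.048, adjusted p = 5.42e-40) and HZ exceeded WT 3.91-fold (1.97 ± 0.049, adjusted p = 1.41e-33). KO was also above HZ, by 1.36-fold unstimulated (adjusted p = 1.19e-12) and by 1.72-fold stimulated (adjusted p = 4.64e-20). The summed macrophage markers and *F13a1*, given above, were likewise higher in HZ and KO than in WT in each state. Without *F13a1* the sum was still higher in KO than in WT in each state, without overlap, and in HZ it was below WT in unstimulated and above WT in stimulated cells. Their part in the difference of *Ptgs1* was not tested.

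Stimulation left *Ptgs1* nearly level in WT and HZ. Its log2 change was 0.03 ± 0.055 in WT (adjusted p = 0.743), which became a fall (-0.28, adjusted p = 1.69e-05) with library totals, and -0.01 ± 0.042 in HZ (adjusted p = 0.798; with library totals -0.25, adjusted p = 1.99e-06). In KO it rose 1.25-fold (0.32 ± 0.041, adjusted p = 7.86e-09), a call lost with library totals (0.03, adjusted p = 0.541). The response in KO exceeded that in WT by 0.29 ± 0.069 (adjusted p = 0.00274), where 9.27% of all genes tested differed. Without replicate 2 of stimulated WT it was 0.24 with an adjusted p of 0.0539.

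*Ptgs2* (NCBI Gene 19225) encodes COX-2, the inducible cyclooxygenase and a known early response gene. It went from at most 3.95 CPM to at least 739.8 CPM within the hour. Unstimulated libraries held 66 and 138 counts (WT), 21 and 44 (HZ) and 63 and 31 (KO), or 1.99 and 3.95, 0.605 and 1.33, and 1.68 and 0.874 CPM. Stimulated libraries held 756.8 and 739.8 CPM (WT), 1026 and 1032 (HZ) and 1019 and 1018 (KO). No stimulated library came near an unstimulated one, and unstimulated WT lay above HZ and KO, which overlapped, although the replicates of each unstimulated group differed widely. The rise was 249.7-fold in WT (log2 fold change 7.96 ± 0.078 SE, adjusted p = 4.03e-52), 1067-fold in HZ (10.06 ± 0.091, adjusted p = 6.59e-54) and 788.7-fold in KO (9.62 ± 0.086, adjusted p = 6.15e-54). These folds rest on the small unstimulated counts. Leaving out an unstimulated library moved the log2 change in WT to 7.57 (without replicate 1) or 8.56 (without replicate 2). It moved to 9.59 or 10.73 in HZ and to 10.18 or 9.24 in KO. These shifts were wider than the SE from edgeR, and DESeq2 gave SE of 0.4547 (WT), 0.4777 (HZ) and 0.4677 (KO).

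Before stimulation *Ptgs2* was lower in KO and HZ than in WT, and after stimulation it was higher in both. Unstimulated KO was 2.32-fold below WT (log2 fold change -1.21 ± 0.21, adjusted p = 5.77e-06) and HZ 3.11-fold below (-1.64 ± 0.23, adjusted p = 6.8e-08). The SE from DESeq2 were wider, at 0.4785 for KO and 0.4883 for HZ. Without replicate 2 of unstimulated WT, which held 138 counts, the change in KO was -0.62 (adjusted p = 0.0366) and that in HZ was -1.05 (adjusted p = 0.000683). Limma on log2(FPKM + 1) with no filter did not call the difference in KO (-0.40, adjusted p = 0.055). The value for KO was -1.77 without KO replicate 1 and -0.83 without KO replicate 2, and the value for HZ was -1.16 without HZ replicate 1 and -2.31 without HZ replicate 2. Unstimulated KO and HZ were not told apart (0.42, 95% interval -0.15 to 0.99, adjusted p = 0.234), and leaving out KO replicate 1 or 2 gave -0.13 or 0.81 (adjusted p = 0.804 or 0.0188). Leaving out HZ replicate 1 or 2 gave -0.05 or 1.10 (adjusted p = 0.925 or 0.0121).

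Stimulated *Ptgs2* was 1.36-fold higher in KO than in WT (0.44 ± 0.043, adjusted p = 4.08e-12) and 1.38-fold higher in HZ (0.46 ± 0.043, adjusted p = 2.48e-12), below the 1.5-fold threshold. DESeq2 gave nearly the same sizes, each with an SE of 0.4432, and did not call them (adjusted p = 0.498 and 0.517). Neither did limma on log2(FPKM + 0.1) (adjusted p = 0.254 and 0.215). Stimulated KO and HZ were not told apart (-0.01, 95% interval -0.10 to 0.07, adjusted p = 0.848).

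The response of *Ptgs2*, which combines both differences, exceeded that of WT by 1.66 ± 0.22 on the log2 scale in KO (adjusted p = 1.19e-07) and by 2.10 ± 0.24 in HZ (adjusted p = 3.37e-10). DESeq2 gave SE of 0.6523 for KO and 0.6595 for HZ. For KO, DESeq2 (adjusted p = 0.0997) and limma on log2(FPKM + 0.1) (adjusted p = 0.0625) did not call the difference in response. Nor did limma on log2(FPKM + 1) with no filter (adjusted p = 0.0529). Without replicate 2 of unstimulated WT the difference was 1.05 in KO and 1.5 in HZ. Without replicate 2 of unstimulated KO it was 1.28.

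The stretches before and at the starts of *Ptgs2* and *Ptgs1* are shown because the members' widest changes concern these genes. They are RefSeq sequences of build GRCm38.p6, an earlier mouse build than the GRCm39 of the count table, with 250 bases before the start and 30 from it on. Both lie on the plus strand, *Ptgs2* at chr1:150099781-150100060 and *Ptgs1* at chr2:36230176-36230455. Capitals mark matches on either strand to a set of short motifs. The core of ETS factor sites, the family of Elk4, was searched as GGAA. E-boxes, which MITF and related factors bind, were searched as CACGTG and, in the other form, as CATGTG. The core of the cyclic AMP response element (CRE) was searched as TGACG, the AP-1 site as TGANTCA and the TATA box as TATAAA, beside the CArG box of SRF, the partner of Elk4.
Ptgs2: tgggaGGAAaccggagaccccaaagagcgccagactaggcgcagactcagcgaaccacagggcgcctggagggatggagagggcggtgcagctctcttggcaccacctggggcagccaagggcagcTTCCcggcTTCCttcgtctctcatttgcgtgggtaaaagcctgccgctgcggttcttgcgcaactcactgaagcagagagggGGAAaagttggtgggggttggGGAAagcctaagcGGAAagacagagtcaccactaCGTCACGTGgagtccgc
Ptgs1: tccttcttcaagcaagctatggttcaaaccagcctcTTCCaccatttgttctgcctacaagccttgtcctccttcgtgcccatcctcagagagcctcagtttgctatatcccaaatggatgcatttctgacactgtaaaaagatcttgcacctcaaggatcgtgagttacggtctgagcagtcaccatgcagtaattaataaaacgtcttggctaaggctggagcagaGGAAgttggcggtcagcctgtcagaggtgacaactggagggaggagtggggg

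In these windows *Ptgs2* held 6 GGAA cores, and from base 13 after its start a CRE core that overlapped a CACGTG E-box beginning at base 16, while *Ptgs1* held 2 GGAA cores and none of the other motifs. Of 32851 promoter windows of 300 bases in the table, 96% held GGAA, 7.15% CACGTG, 14.2% CATGTG, 20.8% TGACG, 7.81% the AP-1 site, 1.63% a CArG box and 13.6% TATAAA. The longer CRE, TGACGTCA, was in 1.79% of windows and in neither of these. Among the other matched starts, CATGTG was found in *Hpgds* and in 1 of the 2 *Pla2g4a* starts and TATAAA in the other *Pla2g4a* start. *Ltc4s* held 8 GGAA cores, *Lta4h* 7, *Hpgds* 4, *Ptges* and *Alox5* 3 each and the *Pla2g4a* starts 2 each. The number of cores per window was not compared with that of all windows. In all, 8 of the 9 genes had an entry, and *Alox5ap* had none. *Ptgs2* and *Pla2g4a* are neighbours on mouse chromosome 1, with 0 protein-coding genes between them in RefSeq.

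Both genes together set the cyclooxygenase RNA of the cells. Summed over *Ptgs1* and *Ptgs2*, it stood at 8.88 ± 0.411 FPKM (SD, n = 2) in unstimulated WT, 31.9 ± 0.743 in HZ and 44.2 ± 0.700 in KO. *Ptgs1* made up 94.2% and 89.2% of it in WT and at least 98.97% in each HZ and KO library. After stimulation the sum was 158.3 ± 2.83 FPKM in WT, 239.0 ± 0.495 in HZ and 250.8 ± 0.566 in KO. *Ptgs1* then made up 4.34% and 4.11% of it in WT, with 10.97% and 11.35% in HZ and with 17.9% and 17.8% in KO. The stimulated groups did not overlap, and *Ptgs2* exceeded *Ptgs1* 22.7-fold in WT, 7.96-fold in HZ and 4.60-fold in KO by these FPKM. These shares describe RNA per length, with no test.

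**Figure D4:**
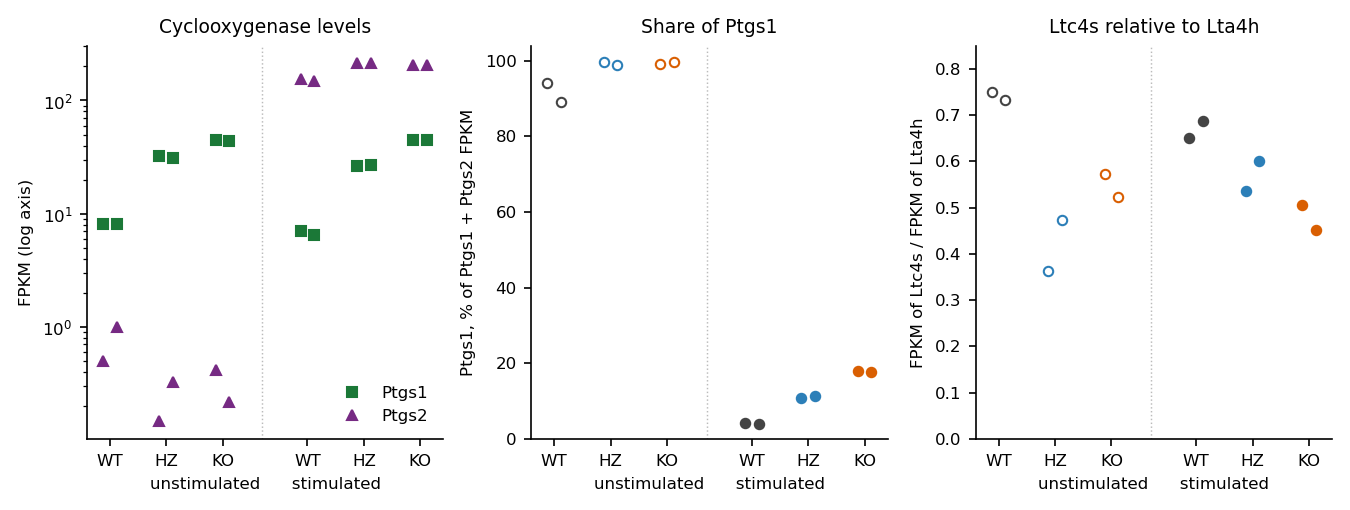
FPKM of Ptgs1 and Ptgs2 (left, log axis), Ptgs1 as a percentage of their sum (middle) and the ratio of Ltc4s to Lta4h FPKM (right), with 1 point per library, open for unstimulated and filled for stimulated cells in the middle and right panels. Ptgs1 falls from at least 89.2% of the sum to 4.11 to 17.9% on stimulation, in the order WT, HZ, KO, and the Ltc4s to Lta4h ratio is highest in WT in both states.

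*Hpgds* (NCBI Gene 54486) encodes hematopoietic prostaglandin D synthase, which makes prostaglandin D2 from the cyclooxygenase product. It was modestly higher in KO than in WT. The unstimulated libraries held 136.8 and 141.6 CPM (WT), 154.9 and 144.5 (HZ) and 174.2 and 177.2 (KO). The stimulated libraries held 158.3 and 167.3 CPM (WT), 190.9 and 185.8 (HZ) and 195.2 and 202.7 (KO). KO was above WT in both states without overlap, 1.26-fold unstimulated (log2 fold change 0.34 ± 0.040 SE, adjusted p = 9.54e-10) and 1.22-fold stimulated (0.29 ± 0.040, adjusted p = 4.85e-08). HZ exceeded WT 1.16-fold when stimulated (0.21 ± 0.040, adjusted p = 3.08e-05). In unstimulated cells the difference of 0.11 (adjusted p = 0.0256) was not called with library totals (0.06, adjusted p = 0.26), without HZ replicate 1 (0.05, adjusted p = 0.369) or without WT replicate 1 (0.08, adjusted p = 0.187). On stimulation it rose 1.26-fold in HZ (0.33 ± 0.040, adjusted p = 5.75e-10), a change that was about 0.10 and not called in the 3 limma fits on FPKM (adjusted p = 0.059, 0.0601 and 0.0913), while its changes of 0.23 in WT and 0.18 in KO with TMM became -0.08 and -0.11 with library totals. Its response in HZ did not differ from that in WT at an adjusted p below 0.05 (0.11, adjusted p = 0.143), though it did with library totals (0.18, adjusted p = 0.00898).

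*Ptges* (NCBI Gene 64292) encodes the inducible microsomal prostaglandin E synthase. It had 0 counts in 7 of the 12 libraries, namely both unstimulated WT, 1 unstimulated HZ, both unstimulated KO and both stimulated HZ. The others held 5 counts in unstimulated HZ, 4 and 1 in stimulated WT and 1 and 6 in stimulated KO, at most 0.209 CPM. A count of 0 allows up to 3 counts, or 0.080 to 0.108 CPM by library, so a level below this was not detectable at this depth. These limits cover counting error only.

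*Alox5* (NCBI Gene 11689) encodes 5-lipoxygenase, the first enzyme of leukotriene synthesis. It was by far the most abundant of the 9 and varied least. The unstimulated libraries held 3337 and 3269 CPM (WT), 3487 and 3473 (HZ) and 3574 and 3613 (KO), and the stimulated ones 3710 and 3788, 3659 and 3661, and 3853 and 3839. Unstimulated KO was 1.09-fold above WT (log2 fold change 0.12 ± 0.019, adjusted p = 7.93e-07), and stimulated KO and WT were not told apart (0.04, 95% interval -0.0018 to 0.08, adjusted p = 0.125). Unstimulated HZ was above WT by 0.08 (adjusted p = 0.000958), a call lost with library totals (0.03, adjusted p = 0.251). Stimulated HZ was not called different from WT in the main edgeR fit (-0.03, adjusted p = 0.165). It was called by DESeq2 (-0.06, adjusted p = 0.00518). Calls also came from edgeR with DESeq2's size factors (-0.06, adjusted p = 0.0166) and with only the groups compared (-0.05, adjusted p = 0.035). On stimulation *Alox5* changed by 0.18 in WT, 0.07 in HZ and 0.10 in KO with TMM and by -0.13, -0.16 and -0.19 with library totals. The responses in KO and HZ were smaller than in WT by 0.08 (adjusted p = 0.0391) and 0.11 (adjusted p = 0.000979), differences not called with library totals (adjusted p = 0.119 and 0.328). For KO the call was also lost without replicate 2 of stimulated WT (adjusted p = 0.203) and without any of the 4 KO libraries (adjusted p = 0.0515 to 0.153). Between KO and HZ it differed by 0.05 unstimulated (adjusted p = 0.0454), a call lost without any of the 4 libraries compared (adjusted p = 0.0512 to 0.213) and with DESeq2 (adjusted p = 0.1), and by 0.07 stimulated (adjusted p = 0.00374; with library totals 0.04, adjusted p = 0.0891).

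*Alox5ap* (NCBI Gene 11690) encodes FLAP, which presents arachidonic acid to 5-lipoxygenase. It stood out in unstimulated HZ. The unstimulated libraries held 386.1 and 386.9 CPM (WT), 554.2 and 593.0 (HZ) and 431.9 and 445.5 (KO). The stimulated libraries held 374.6 and 374.6 CPM (WT), 396.9 and 399.6 (HZ) and 414.2 and 417.4 (KO). The unstimulated HZ pair lay above all other libraries, and the stimulated groups lay within a narrow range. Unstimulated HZ exceeded WT 1.48-fold (log2 fold change 0.57 ± 0.030, adjusted p = 2.64e-21) and KO 1.31-fold (adjusted p = 4.35e-15), and KO exceeded WT 1.14-fold (adjusted p = 2.01e-06). On stimulation it fell 1.44-fold in HZ (-0.53 ± 0.030, adjusted p = 2.85e-20), with a response 0.48 ± 0.043 lower than in WT (adjusted p = 5.07e-13). Its changes in WT (-0.05, adjusted p = 0.239) and KO (-0.08, adjusted p = 0.0378) were near 0 with TMM and -0.35 and -0.37 with library totals, and the call in KO was lost without KO replicate 2 of either state or stimulated KO replicate 1 (adjusted p = 0.102 to 0.287) and with DESeq2 (adjusted p = 0.111). After stimulation KO exceeded WT 1.11-fold (adjusted p = 7.78e-05). HZ exceeded WT by 0.09 (adjusted p = 0.0209), a call lost without any of the 4 libraries compared (adjusted p = 0.0542 to 0.0913) and with DESeq2 (adjusted p = 0.113).

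*Ltc4s* (NCBI Gene 17001) encodes leukotriene C4 synthase, which joins leukotriene A4 to glutathione, the step towards the cysteinyl leukotrienes. It was lower in HZ and KO than in WT in both states. The unstimulated libraries held 40.2 and 38.6 CPM (WT), 16.9 and 21.9 (HZ) and 27.5 and 24.5 (KO). The stimulated libraries held 39.5 and 41.5 CPM (WT), 29.6 and 31.3 (HZ) and 25.4 and 24.3 (KO). Every WT library was above every other, and HZ was lowest before and intermediate after stimulation. Unstimulated HZ was 2.03-fold below WT (log2 fold change -1.02 ± 0.088, adjusted p = 6.07e-14) and KO 1.52-fold below (-0.60 ± 0.085, adjusted p = 7.58e-08). Leaving out 1 library moved the HZ value between -1.225 and -0.847, so it was not 2-fold in every fit. After stimulation KO was 1.63-fold below WT (-0.70 ± 0.088, adjusted p = 4.76e-09) and HZ 1.33-fold below (-0.41 ± 0.086, adjusted p = 0.000135).

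Stimulation raised *Ltc4s* 1.57-fold in HZ (0.65 ± 0.090, adjusted p = 2.02e-08), and this response exceeded that of WT by 0.61 ± 0.12 (adjusted p = 6.15e-05). In WT it changed by 0.04 (adjusted p = 0.747) with TMM and by -0.27 (adjusted p = 0.0042) with library totals, and in KO by -0.06 (adjusted p = 0.614) and -0.35 (adjusted p = 0.000617). KO was 1.34-fold above HZ unstimulated (adjusted p = 0.000117) and 1.22-fold below it stimulated (adjusted p = 0.0119). The latter call was lost without replicate 2 of stimulated HZ (adjusted p = 0.102) or of stimulated KO (adjusted p = 0.099).

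*Lta4h* (NCBI Gene 16993) encodes leukotriene A4 hydrolase, which makes leukotriene B4 from the same intermediate. It was slightly lower in HZ and KO. The unstimulated libraries held 157.9 and 155.4 CPM (WT), 137.3 and 136.1 (HZ) and 141.2 and 137.6 (KO), and the stimulated ones 178.4 and 177.5, 162.6 and 153.1, and 148.0 and 158.3. WT lay above HZ and KO in each state. The differences were 1.12-fold for KO and 1.15-fold for HZ in unstimulated cells (adjusted p = 0.000524 and 5.56e-05), and 1.16-fold and 1.13-fold in stimulated cells (adjusted p = 1.89e-05 and 0.000575). On stimulation it changed by 0.18 in WT, 0.21 in HZ and 0.14 in KO with TMM, all called, and by -0.12, -0.02 and -0.15 with library totals. The rise in KO was not called without stimulated KO replicate 2 (0.09, adjusted p = 0.21) or unstimulated KO replicate 2 (0.12, adjusted p = 0.0687).

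*Ltc4s* and *Lta4h* use the same substrate, and the ratio of their FPKM was highest in WT. It was 0.749 and 0.732 in unstimulated WT, 0.363 and 0.473 in unstimulated HZ and 0.573 and 0.523 in unstimulated KO. Stimulated WT had ratios of 0.651 and 0.688, HZ of 0.536 and 0.601, and KO of 0.505 and 0.452. WT did not overlap with the other genotypes in either state. In such bulk RNA, fewer cells expressing a gene and less of its RNA per cell cannot be told apart, here and for the values above.

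The further genes of the pathway were taken from lists of 79 genes in 5 groups, of which 64 were in the table and 47 were tested. On stimulation 0 rose and 2 fell past the threshold in WT, 1 rose and 6 fell in HZ, and 0 rose and 3 fell in KO. Of all genes, 6.77%, 14.3% and 6.61% passed here. All shares in this paragraph are for either direction. In unstimulated cells 2 were higher and 6 lower in KO than in WT (7.51% of all genes). For HZ against WT, 3 were higher and 6 lower (9.15%). In stimulated cells 5 were higher and 7 lower in KO than in WT (12.7%). For HZ against WT, 1 was higher and 7 lower (7.89%). KO against HZ gave 1 higher and 2 lower unstimulated (3.36%), and 1 higher and 3 lower stimulated (5.32%). The response, with no fold threshold, was called higher than in WT for 1 and lower for 4 in KO (9.27%). In HZ it was higher for 7 and lower for 18 (38.5%).

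Of 15 listed receptors for these lipids, 10 were in the table and 7 were tested. *Ltb4r1*, the high-affinity leukotriene B4 receptor, had 755 and 764 counts in unstimulated WT, 273 and 247 in unstimulated HZ and 298 and 219 in unstimulated KO. It was 3.15-fold lower in KO (adjusted p = 8.84e-12) and 2.91-fold lower in HZ (adjusted p = 4.88e-11), and after stimulation 4.27-fold and 5.21-fold lower (adjusted p = 1.2e-13 and 5.49e-15). *Ltb4r2*, the low-affinity receptor, was 2.27-fold lower in stimulated KO and 3.14-fold lower in stimulated HZ (adjusted p = 3.67e-09 and 1.09e-12). *Ptgir*, the prostacyclin receptor, had 451 and 427 counts in unstimulated WT, 236 and 251 in unstimulated HZ and 136 and 120 in unstimulated KO. In KO it was 3.68-fold below WT unstimulated and 6.91-fold below stimulated (adjusted p = 1.2e-12 and 1.96e-15), and it fell on stimulation 2.59-fold in HZ and 2.47-fold in KO (adjusted p = 2.31e-08 and 7.54e-06). *Cysltr2*, a cysteinyl leukotriene receptor, went the other way in unstimulated cells, from 41 and 52 counts in WT to 188 and 179 in HZ (3.97-fold, adjusted p = 2.65e-06) and 141 and 79 in KO (2.20-fold, adjusted p = 0.00626). It fell on stimulation in all 3 genotypes, 2.19-fold in WT, 5.31-fold in HZ and 3.68-fold in KO (adjusted p = 0.0259, 8.92e-08 and 6.37e-05).

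Among 16 listed genes of eicosanoid breakdown and transport, 12 were tested. In stimulated cells 1 was higher and 4 were lower in KO than in WT, where 12.7% of all genes passed in either direction. In unstimulated cells 0 were higher and 3 lower in KO than in WT (7.51%), and 0 passed on stimulation in WT (6.77%). *Slco3a1*, a transporter that can carry prostaglandins, had 109 and 123 counts in unstimulated WT, 41 and 51 in unstimulated HZ and 14 and 22 in unstimulated KO, 6.84-fold lower in KO and 2.50-fold lower in HZ (adjusted p = 8.13e-07 and 0.0042). *Cyp4f18*, a leukotriene B4 hydroxylase, had 74 and 109 counts in unstimulated WT, 4 and 12 in unstimulated HZ and 20 and 8 in unstimulated KO, 11.1-fold lower in HZ and 6.95-fold lower in KO (adjusted p = 1.32e-06 and 2.09e-05). It overlaps *Zfp961* on the other strand. *Ptgr1*, which inactivates prostaglandins and leukotriene B4, was 2.16-fold lower in unstimulated KO (adjusted p = 2.89e-05) and 1.76-fold lower in stimulated HZ (adjusted p = 0.00271). *Ephx1*, an epoxide hydrolase, was 1.82-fold lower in stimulated KO than in stimulated WT (adjusted p = 7.72e-06).

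Of 21 listed genes of arachidonate release and re-esterification, 13 were tested. *Pla2g4b* and *Pla2g4c* had few counts. *Pla2g4b* had 39 and 37 in unstimulated and 4 and 4 in stimulated WT, 8.10-fold lower (adjusted p = 0.000397). It overlaps *Gm28042* on the same strand and *Sptbn5* on the other. *Pla2g4c* had 9 and 8 in unstimulated and 50 and 38 in stimulated HZ, 5.53-fold higher (adjusted p = 8.7e-05). Not all phospholipases of the list were low: *Pla2g7*, named for its level only, had 9191 and 9623 counts in unstimulated WT. *Pla2g12a* was 1.63-fold lower in stimulated KO than in HZ (adjusted p = 0.0369). *Mgll*, which can release arachidonic acid from an endocannabinoid, fell 2.15-fold on stimulation in HZ (adjusted p = 5e-04). *Acsl3*, an acyl-CoA synthetase that overlaps *Utp14b* on the same strand, was 1.54-fold higher in stimulated KO and 1.57-fold higher in stimulated HZ than in WT (adjusted p = 0.00228 and 0.00154).

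Of 17 other lipoxygenases and leukotriene enzymes 10 were tested, and *Mgst2*, which can also make leukotriene C4, fell 2.14-fold on stimulation in HZ (adjusted p = 0.00281). Of 10 other prostanoid synthases 5 were tested, and 0 passed the thresholds in the stimulation or genotype comparisons. With no fold threshold, edgeR called 3 of the 5 higher on stimulation in WT (45.3% of all genes were called, in either direction) and 4 higher in unstimulated KO than in WT (44.6%). The rises in WT depended on the scaling, 2 of them in direction, as seen in the deposited FPKM, which are scaled by library totals. There the WT mean fell from 8.74 to 8.27 for *Tbxas1* and from 64.4 to 59.0 for *Akr1b3*. For *Ptges3* it still rose, from 51.1 to 51.9. These means do not rank the genes. In unstimulated WT *Tbxas1* had 9772 and 10324 counts and *Akr1b3* 2725 and 2769, so the FPKM of *Tbxas1* use a far greater length. These genes and *Ptgds* are named after their values were seen. *Tbxas1*, thromboxane synthase, had 9772 to 13679 counts in every library, and *Ptgds*, the other prostaglandin D synthase, had at most 4.

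Over the 12 libraries, the genes whose log2 CPM followed each member most closely are given as a description. For *Ptgs2* they were *Hbegf* (Pearson r = 0.998), *Il6* (0.997) and *Atp2a2* (0.997), and for *Ptgs1* they were *Fgfr1* (0.993), *Pkig* (0.990) and *Chpt1* (0.989). *Pla2g4a* was followed by *H3f3b* (0.992), *Eif4a1* (0.992) and *Hdlbp* (0.991), *Hpgds* by *Qdpr* (0.993), *Pakap* (0.988) and *Mt2* (0.982), and *Alox5ap* by *Glb1* (0.993), *Adk* (0.985) and *Gp5* (0.984). The closest genes were less alike for *Alox5* (*Gstm1*, 0.965, *Slc25a33*, 0.963, and *Sdcbp*, 0.960), *Ltc4s* (*Ulk2*, 0.972, *Ints9*, 0.971, and *Eefsec*, 0.964) and *Lta4h* (*Dnmt3a*, 0.976, *Gpr176*, 0.969, and *Il1a*, 0.964). The 12 points fall into 6 groups and share their library totals, so they are not independent.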

How the data were processed

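RNA-seq libraries of 12 BMMC samples were grouped by the genotype and treatment of their labels. The authors deposited raw read counts per gene, without normalization, and a second table of FPKM values. For 4579 genes with high counts the deposited FPKM equalled the count divided by gene length and library total. The submitters' processing notes name fastp, HISAT2, HTSeq and the GRCm39 build; versions, the annotation and whether counting used strand are not given in the sources used here. In GENCODE M21, *Pla2g4a*, *Ltc4s*, *Alox5ap*, *Hpgds* and *Ptgs1* overlap gene models on the other strand. *Ptges* overlaps a pseudogene on its own strand. The overlapping models were not in the count table by name. Reads of these pairs may be shared.

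The 9 genes and all lists were chosen with earlier results of these data known. All 9 are named. Of the other lists, up to 3 genes per list and comparison are named, those with the largest change past the thresholds and a mean of at least 1 CPM in the higher group. The counts were fitted with edgeR 4.0.16 under R 4.3.3 (TMM, filterByExpr, glmQLFit and glmQLFTest) in 1 model of 6 groups with 6 residual and 38.9 prior degrees of freedom, two-sided, with Benjamini-Hochberg adjustment over 12208 genes. TMM factors ranged from 1.08 to 1.12 before and from 0.902 to 0.924 after stimulation. Thresholds were an adjusted p below 0.05 and an absolute log2 fold change of 1 or more, or, between stimulated genotypes, a ratio of 1.5 or above, or of 0.66 or below. Responses were compared as interactions, at an adjusted p below 0.05. Replicates differed beyond counting noise (chi-square over degrees of freedom 2.95 to 5.52), with a biological coefficient of variation of 4.01%.

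Alternatives were DESeq2 1.42.0, its size factors in edgeR, library totals, no filter, at least 10 counts in every library, only the groups compared, a replicate block, no fold threshold, limma 3.58.1 on log2(FPKM + 1) or log2(FPKM + 0.1), and leaving out each library. With 2 libraries per group no library can be tested as deviating. Promoter sequences were those of RefSeq, GRCm38.p6.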

Additional observations from a re-analysis of the deposited data

Results flagged for a closer look

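The response to stimulation differed between genotypes, by edgeR's test of the interaction, in 3 of the 8 genes for KO against WT (9.27% of all genes tested) and in 5 for HZ against WT (38.5%). For KO the differences on the log2 scale were 0.29 for *Ptgs1*, 1.66 for *Ptgs2* and -0.085 for *Alox5*. For HZ they were 0.44 for *Pla2g4a*, 2.10 for *Ptgs2*, -0.11 for *Alox5*, -0.48 for *Alox5ap* and 0.61 for *Ltc4s*. Both comparisons use the same WT libraries. Leaving out any library kept the calls of *Pla2g4a*, *Alox5ap* and *Ltc4s*, as did library totals, and those of *Ptgs2* in both comparisons. DESeq2 did not call the difference of *Ptgs2* in KO (adjusted p = 0.0997), and the call of *Ptgs1* in KO was lost without replicate 2 of stimulated WT (adjusted p = 0.0539). The calls of *Alox5* were lost with library totals (adjusted p = 0.119 for KO and 0.328 for HZ).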

How the results depend on the processing

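Leaving out the fold threshold raised the number of the 8 genes called to 5, 7 and 7 for stimulation in WT, HZ and KO, to 7, 8 and 6 for unstimulated KO against WT, HZ against WT and KO against HZ, and to 6, 6 and 3 for the same comparisons of stimulated cells. Limma on log2(FPKM + 1), with or without a filter, passed 1 gene in place of 2 between unstimulated KO and WT. Limma on log2(FPKM + 0.1), and on log2(FPKM + 1) with no filter, called 1 in place of 3 for the response in KO. Leaving out 1 library gave 1 to 2 genes for unstimulated KO against WT (1 without replicate 2 of unstimulated WT or of unstimulated KO), 0 to 1 for unstimulated KO against HZ (1 without replicate 2 of unstimulated HZ) and 1 to 3 for the response in KO (1 without replicate 2 of stimulated WT). DESeq2, its size factors in edgeR, library totals, both other filters and the fit of only the groups compared kept all 11 counts within 1.5 times.

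With library totals the direction on stimulation turned for *Ptgs1* (-0.28), *Hpgds* (-0.0822), *Alox5* (-0.13), *Ltc4s* (-0.27) and *Lta4h* (-0.12) in WT, for *Alox5* (-0.16) and *Lta4h* (-0.0235) in HZ, and for *Hpgds* (-0.11), *Alox5* (-0.19) and *Lta4h* (-0.15) in KO, as did the difference of the *Ptgs1* response in HZ (0.0373). Limma on log2(FPKM + 1), with or without a filter, turned the same 11, to -0.25, -0.0801, -0.13, -0.27 and -0.12, to -0.16 and -0.0244, to -0.11, -0.19 and -0.15, and to 0.0130. Limma on log2(FPKM + 0.1) turned them to -0.28, -0.0821, -0.13, -0.27 and -0.12, to -0.16 and -0.0247, to -0.11, -0.19 and -0.15, and to 0.0359. FPKM are scaled by library totals, so these settings share that scaling. *Pla2g4a* in stimulated KO against HZ, not called, turned to 0.00724 with DESeq2, 0.00687 with its size factors and 0.00410 with at least 10 counts in every library.

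Leaving out 1 library turned the direction of 9 uncalled differences. These ranged from -0.0320 to 0.0814 for *Ptgs1* on stimulation in WT, from -0.0428 to 0.0195 in HZ, from -0.15 to 0.0228 for *Ltc4s* on stimulation in KO, from -0.13 to 1.10 for *Ptgs2* in unstimulated KO against HZ, from -0.0342 to 0.0306 for *Pla2g4a* and from -0.0954 to 0.00330 for *Lta4h* in stimulated KO against HZ, from -0.0189 to 0.0455 for the *Pla2g4a* response in KO, and from -0.0933 to 0.0204 for *Ptgs1* and from -0.0190 to 0.0679 for *Lta4h* in the response in HZ. The lone library of an arm was assumed to vary like the other groups. The replicate block, as an additive term or within genotype, changed no call of the 8 genes, and the numbers of genes past the thresholds in the replicate block fit were 1, 1 and 1 for stimulation, 2, 3 and 0 for unstimulated and 2, 1 and 1 for stimulated genotypes, and 3 and 5 for the responses. Deviations of same-numbered libraries of a genotype correlated at -0.023 (WT), 0.063 (HZ) and -0.021 (KO) over 9858 genes, so the numbers were not taken to pair libraries. For *Ptges* depth was the limit, and for unstimulated *Ptgs2* the small counts differed widely between the replicates of each group.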
